A study of Caenorhabditis elegans with 16 samples.

Results

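Chromatin accessibility was compared between C. elegans larvae depleted of RPOA-2 and larvae depleted of GRWD-1, 2 proteins of ribosome biogenesis. Members were chosen by genotype in the sample labels: 4 libraries of rpoa-2::degron; eft-3p::tir-1 and 4 libraries of rrb-1::degron; eft-3p::tir-1, 8 of the 16 libraries of the study. ATAC-seq, in which a transposase cuts and tags open DNA, was performed on nuclei of whole L1 larvae, and the readout was the number of reads in each of 29131 merged peaks.

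All 4 strains of the study were kept on 1 mM auxin at 23 °C from embryo onwards, and each carried an auxin degron on 1 of the genes. The depleted strains also carried TIR1, the F-box protein through which auxin directs a degron-tagged protein to the proteasome, under the eft-3 promoter, which is active throughout the body. They were collected after 24 h, whereas the undepleted strains, rpoa-2::degron and rrb-1::degron without TIR1, were collected after 18 h because they grew faster. The labels call the second protein RRB-1, and the study calls it GRWD-1. Strain, transgene insertion and the depleted protein cannot be told apart in a direct comparison of the depleted strains. The same contrast was therefore also taken between the undepleted strains, and the difference of the 2 depletion effects (the interaction) was tested. Both take account of differences between the strains without TIR1 only. A difference particular to a strain with TIR1, such as its transgene insertion, stays in the interaction and cannot be told apart from depletion. The 4 libraries of a strain came from larvae that were split evenly before nuclei were prepared, so the p-values measure the spread between such aliquots and not between separate cultures.

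RPOA-2 is a catalytic core subunit of RNA polymerase I, the enzyme that transcribes the rDNA repeats into the precursor of the large rRNAs. GRWD-1 is the orthologue of yeast Rrb1, a chaperone that escorts the ribosomal protein uL3 (RPL-3) into the assembling large subunit. In worms the repeats of the large rRNA genes lie at the right end of chromosome I, while the 5S rRNA genes, transcribed by RNA polymerase III, lie on chromosome V.

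Peak read totals were 2337415 to 8275618 in the RPOA-2 depleted libraries and 2738460 to 13010378 in the GRWD-1 depleted libraries, so the second group was the deeper by its median. Across peaks, log2 CPM (reads in a peak divided by the scaled library total) of 2 libraries of the same group correlated with r of 0.950 to 0.977 over 12 pairs, and those of libraries with the same number in the other group with 0.952 to 0.977 over 4 pairs, as a description of libraries that share peaks and base composition. On the first principal component of the 8 depleted libraries over the 500 most variable peaks, the libraries numbered 2 of both strains stood apart at 9.78 and 8.23, and the other 6 lay between -6.83 and -1.30. The groups did not separate on that component (43.9% of the variance, difference of means 0.72, two-sided exact permutation p = 0.829). The second component differed by 5.80 (exact permutation p = 0.0857), and the smallest p that 4 against 4 libraries allow is 0.0286. Chi-square per degree of freedom between libraries of a group was 2.08 to 11.8, above sampling noise in all 12 pairs, and each library was counted once.

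The depleted strains differed at few peaks. Accessibility was higher in RPOA-2 depleted larvae at 29 peaks (0.0996% of the peaks tested) and lower at 9 (0.0309%), at an adjusted p under 0.05 in edgeR's quasi-likelihood test, adjusted after Benjamini and Hochberg. The fit held the 16 libraries and 2 factors of unwanted variation estimated from control peaks. Without adjustment, 1248 peaks were higher (4.28%) and 811 lower (2.78%) at p under 0.05. The log2 fold change, RPOA-2 depleted over GRWD-1 depleted, had a median of 0.01 over all peaks, and its 5th and 95th percentiles were -0.26 and 0.25. Its 95% interval lay wholly within ±0.5 at 22091 peaks (75.8%), so at these a difference of that size was outside the interval, while at 81 peaks the interval reached beyond ±1. These intervals hold for this fit, which takes the 2 factors as known.

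The same contrast between the undepleted strains passed the threshold at 1 peak (0.00343%), and 1183 peaks (4.06%) had an unadjusted p under 0.05. The 2 depletion effects differed by the interaction at 3 peaks (0.0103%), all among the 9 lower ones, and 1687 peaks (5.79%) had an unadjusted p under 0.05 there. At the 29 higher peaks the median log2 fold change was 0.43 between the depleted strains and 0.04 between the undepleted strains. Their median upon RPOA-2 depletion, against the undepleted strain, was 0.38, and upon GRWD-1 depletion it was -0.10. The 9 lower peaks had medians of -0.63 between the depleted strains, -0.02 between the undepleted, -0.49 upon RPOA-2 depletion and 0.10 upon GRWD-1 depletion. These contrasts share libraries, and the peaks were chosen by the difference between the depleted strains. The choice itself favours larger medians there than between the undepleted strains, and median depletion effects that lean apart. The depleted and undepleted larvae also differed in hours of growth as well as in TIR1.

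**Figure D1:**
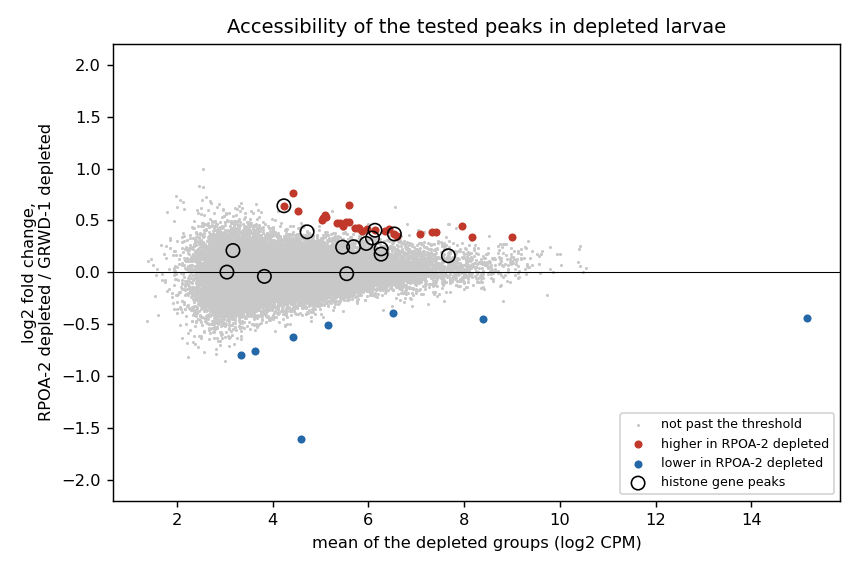
Log2 fold change between RPOA-2 depleted and GRWD-1 depleted larvae (vertical axis) against mean accessibility of both groups (log2 CPM, horizontal axis), 1 point per peak. The 29 higher peaks (red) and 8 of the 9 lower peaks (blue) are shown, the kvs-3 5′UTR peak being off the scale, and circles mark the 15 histone gene peaks, 13 of which lie above 0.

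The counts depended on the factors and on single libraries. With 0 factors, 0 peaks were higher and 2 were lower in edgeR's test, although 531 and 626 had an unadjusted p under 0.05, whereas DESeq2 with the 2 factors called 41 and 7. The balance turned towards lower peaks with the replicate number as a block in place of the factors, where 2 were higher and 13 lower, and with that block on the depleted libraries alone, where 22 were higher and 62 lower. RPOA-2 depleted library 2 had the highest CPM of its group at 22 of the 29 higher peaks, against 27.1% of all peaks, and without it 0 were higher and 3 lower (729 and 568 at an unadjusted p under 0.05). GRWD-1 depleted library 2 was likewise the highest of its group at 19 of the 29, against 30.0% of all peaks, and at the 9 lower peaks library 2 was the highest at 6 in each group. Without the 4 libraries numbered 2, 6 were higher and 6 lower. All 38 peaks kept their direction under each of 33 alternatives, and 2, the kvs-3 5′UTR peak and the F31C3.16 peak, passed in 32. In the exception, DESeq2, neither had an adjusted p.

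**Figure D2:**
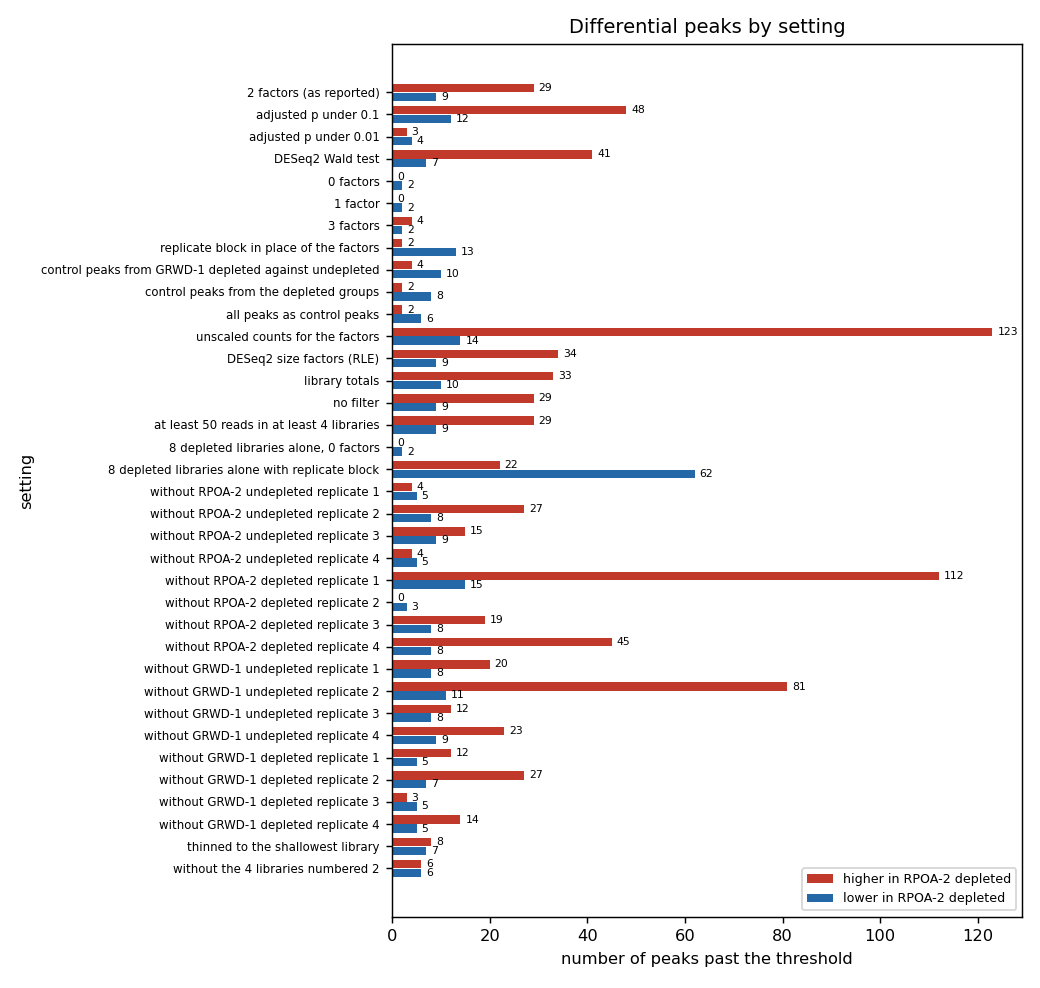
Number of peaks called higher (red) or lower (blue) upon RPOA-2 depletion relative to GRWD-1 depletion at each setting, 1 pair of bars per setting. Counts of higher peaks run from 0 to 123 and counts of lower peaks from 2 to 62, against 29 and 9 as reported.

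Among the lower peaks, the rDNA came first by read number. The peak over rrn-1.1, rrn-2.1 and rrn-3.1, which encode the 18S, 5.8S and 26S rRNAs, lies on chromosome I from 15063578 to 15068104 (WBcel235) and covers exons of all 3 genes. It held 28504, 37109, 28678 and 25462 CPM in RPOA-2 depleted libraries 1 to 4, and 36830, 53214, 36351 and 49190 CPM in the GRWD-1 depleted libraries. The groups overlapped at library 2 of the RPOA-2 depleted strain, which lay above GRWD-1 depleted libraries 1 and 3, and the other 3 RPOA-2 depleted libraries lay below all 4.

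The rDNA peak thus took 2.68% to 3.43% of a library's peak reads in RPOA-2 depleted larvae and 3.60% to 5.00% in GRWD-1 depleted larvae. Its log2 fold change was -0.44 (SE 0.0575, adjusted p = 1.72e-07, edgeR's quasi-likelihood test). Undepleted libraries held 36563 to 44677 CPM in the RPOA-2 strain and 37607 to 49314 CPM in the GRWD-1 strain, ranges that overlap, with a log2 difference of 0.02. Accessibility fell by 0.55 on the log2 scale upon RPOA-2 depletion (adjusted p = 5.45e-12, edgeR) and differed by -0.08 upon GRWD-1 depletion (adjusted p = 0.629). The 2 effects differed by -0.47 (interaction, adjusted p = 7.00e-04, edgeR). The direct difference missed the threshold with 0 factors (-0.55, also in the depleted libraries alone), 1 factor (-0.44) and 3 factors (-0.31). The interaction passed in 22 of the 31 alternatives that gave one, with values of -0.56 to -0.34, and was lost with 0, 1 or 3 factors, the replicate block, unscaled counts for the factors or DESeq2, without RPOA-2 depleted library 2 or GRWD-1 depleted library 4 (adjusted p = 0.161 and 0.0938, edgeR), and without the libraries numbered 2. Reads from the repeats pile onto the sequence in the assembly, so accessibility per repeat and the number of repeats cannot be told apart. Only reads with a mapping quality of at least 10 were counted. Reads that fit several copies in the assembly equally well were thus left out, and the rRNA gene values rest on the rest.

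The rDNA peak has neighbours on both sides. On its right, a peak over the end of rrn-3.1 (chromosome I from 15068200 to 15068595), the last of the chromosome, held 56.1 to 94.7 CPM in RPOA-2 depleted and 88.9 to 148 CPM in GRWD-1 depleted larvae. Its log2 fold change of -0.37 did not pass the threshold (adjusted p = 0.0996, edgeR). By contrast, the 5S rRNA peak over rrn-4.15 (chromosome V from 17426266 to 17429038) had a log2 fold change of -0.01 with a 95% interval from -0.16 to 0.14, and its sign changed with the setting. Of 22 rRNA genes listed, 4 lay under these 3 peaks, 1 of which was called lower, beside 0.0309% of all peaks. The other listed genes lay under no peak, so the 5S value is that of rrn-4.15 alone and not of all 5S genes.

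On the left of the rDNA, 2219 bp away, a peak over the noncoding RNA F31C3.16 and a pseudogene (chromosome I from 15060874 to 15061359) was the second lowest by fold change. It held 9.37, 16.3, 10.0 and 7.62 CPM in RPOA-2 depleted libraries 1 to 4 and 34.4, 46.8, 33.2 and 36.7 CPM in the GRWD-1 depleted libraries. Every RPOA-2 depleted library lay below every GRWD-1 depleted library. The log2 fold change was -1.61 (SE 0.146, adjusted p = 5.17e-14, edgeR). The undepleted strains held 11.2 to 22.7 and 19.8 to 44.4 CPM, a log2 difference of -0.58 with an unadjusted p of 2.2e-04 and an adjusted p of 0.534 in edgeR's test, in the same direction as in the depleted strains. The 2 depletion effects differed by -1.03 (interaction, adjusted p = 0.0281, edgeR), with a fall of 0.69 upon RPOA-2 depletion and a value of 0.34 upon GRWD-1 depletion (adjusted p = 0.0109 and 0.163). That interaction passed in 13 of the 31 alternatives, with values of -1.24 to -0.81. It was lost with 0, 1 or 3 factors, the block, unscaled counts, DESeq2 or reads thinned to the shallowest library, without any 1 of the RPOA-2 depleted libraries, without RPOA-2 undepleted library 2 or 4, GRWD-1 undepleted library 1 or 3 or GRWD-1 depleted library 1 or 4, and without the libraries numbered 2. The next peak to the left, in the 5′UTR of F31C3.6, differed by -0.30 on the log2 scale (adjusted p = 0.404, edgeR), and the 3 beyond it lay between -0.01 and 0.07.

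The lowest peak of all was found in GRWD-1 depleted libraries almost alone. It lies on chromosome V from 9317893 to 9318644, over the 5′UTR of kvs-3, a voltage-gated potassium channel gene, with a tRNA gene and the noncoding RNA F44A2.10. The GRWD-1 depleted libraries held 66.1, 79.9, 91.5 and 82.6 CPM (230 to 1102 reads), and the RPOA-2 depleted libraries 0, 0, 0.835 and 0 CPM (2 reads in all). All 12 libraries other than the GRWD-1 depleted ones, undepleted GRWD-1 strain included, held 10 reads together and at most 4 each. No other of the 29131 peaks held fewer than 166 reads over those libraries.

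The read level at this peak was thus on average at least 112-fold lower in RPOA-2 depleted larvae. This sets the mean of the GRWD-1 depleted libraries (80.0 ± 10.5 CPM, SD, n = 4) against a floor of 3 reads per RPOA-2 depleted library. The lowest GRWD-1 depleted library lay 52.8-fold above the highest such floor. The interaction passed the threshold too (adjusted p = 1.68e-06, edgeR), and in 28 of the 31 alternatives. It missed it without RPOA-2 undepleted library 2 (adjusted p = 0.380, edgeR), when thinned (0.0915) and without the libraries numbered 2 (0.550). Peaks around it were present in both groups. The neighbour 490 bp to the right, in an exon of kvs-3 (chromosome V from 9319134 to 9319333), held 4.24 to 7.42 CPM in RPOA-2 depleted and 9.62 to 10.4 CPM in GRWD-1 depleted libraries, without overlap, with a difference of -0.85 on the log2 scale (adjusted p = 0.0632, edgeR). On the left, the nearest peak lay 18394 bp away, and the 4 peaks there had log2 fold changes of -0.10 to 0.16. Whether the strain carries a DNA change at this place was not tested.

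**Figure D3:**
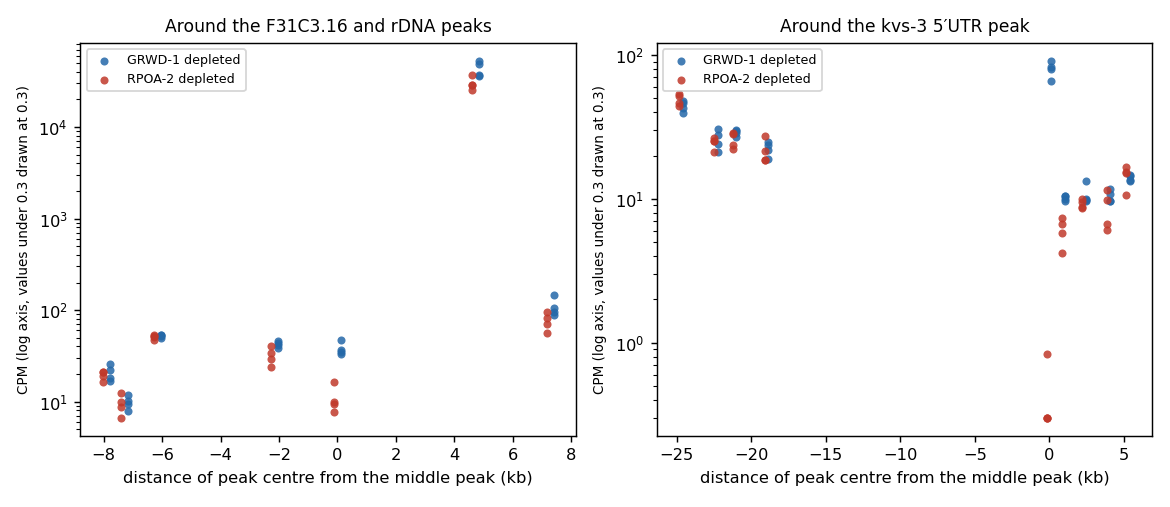
CPM (log axis) of the peaks around the F31C3.16 peak (left, with the rDNA peak to its right) and the kvs-3 5′UTR peak (right), 1 point per depleted library, against the distance of each peak's centre (kb). At the kvs-3 5′UTR peak the 4 GRWD-1 depleted libraries lie at 66.1 to 91.5 CPM and the RPOA-2 depleted libraries at 0 to 0.835, while the next peaks on either side are present in both groups.

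A further 6 peaks were lower. The peak over acs-2, an acyl-CoA synthetase of mitochondrial fatty acid oxidation, also covers the lincRNA linc-108 (chromosome V from 15566279 to 15570001). It held 262, 341, 252 and 245 CPM in RPOA-2 depleted libraries 1 to 4 and 356, 468, 436 and 347 CPM in GRWD-1 depleted libraries. The highest RPOA-2 depleted library lay just below the lowest GRWD-1 depleted library. Its log2 fold change was -0.44 (SE 0.0774, adjusted p = 7.53e-04, edgeR), and accessibility fell by 0.37 on the log2 scale upon RPOA-2 depletion against a value of 0.05 upon GRWD-1 depletion. The call was lost with 0, 1 and 3 factors, with unscaled counts for the factors, where the value was -0.25, in the depleted libraries alone with 0 factors, and without RPOA-2 depleted library 2.

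The other 5 lower peaks lay over F-box genes and genes with sequence names only. Both F-box genes belong to families that are greatly expanded in nematodes. An exon of fbxa-134 (chromosome V from 17351307 to 17351591) held 6.14 to 9.11 CPM in RPOA-2 depleted and 10.6 to 14.9 CPM in GRWD-1 depleted larvae (log2 fold change -0.80, adjusted p = 0.0461, edgeR). The 5′ end nearest to this peak was that of lsy-27. The shared 5′UTR region of fbxb-13 and C08F1.6 (chromosome II from 1787958 to 1788331) held 13.1 to 20.0 and 22.9 to 32.0 CPM (-0.63, adjusted p = 0.0284, edgeR). Neither peak's groups overlapped. The 3 others, over Y20C6A.1, Y58A7A.5 and F46C5.1, had log2 fold changes of -0.76, -0.51 and -0.39, and their groups overlapped. In all, 5 of the 9 lower peaks had groups that did not overlap, against 1.26% of all peaks that were lower in this way. The choice of the peaks on these libraries favours such an excess. All 9 overlapped a gene, and 5 overlapped a 5′UTR (55.6%, against 14.4% of all peaks).

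Peaks at histone genes lay mostly on the higher side. Core histone genes come in many near-identical copies that are used when DNA is replicated, often as divergent pairs that share a promoter. Of 72 histone genes listed, 12 were the nearest gene of 15 peaks, and 10 of these peaks covered at least 2 histone genes. Counted by overlap, 19 peaks touched 29 of the 72 genes, and 5 of the 19 were outside the list because another gene was nearest. Accessibility was higher in RPOA-2 depleted larvae at 3 peaks and lower at 0, beside 0.0996% and 0.0309% of all peaks. At an unadjusted p under 0.05, 11 of 15 were higher and 0 lower, beside 4.28% and 2.78% of all peaks. The median log2 fold change over the 15 was 0.24 beside 0.01 over all peaks, and 13 were above 0. The 5 peaks outside the list, over his-74, his-16, his-24, his-42 and the cluster of his-35, his-37 and his-41, had log2 fold changes of -0.03 to 0.11 with a median of 0.03, none with an unadjusted p under 0.05 and all with overlapping groups.

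The 3 called histone peaks lay over divergent pairs, and none of them had overlapping groups. At his-7 and his-8 (chromosome V from 8533055 to 8533425), RPOA-2 depleted libraries 1 to 4 held 28.9, 23.1, 19.2 and 19.3 CPM and GRWD-1 depleted libraries 13.98, 17.3, 16.7 and 12.2 CPM. Every RPOA-2 depleted library was above every GRWD-1 depleted library (log2 fold change 0.64, SE 0.140, adjusted p = 0.0246, edgeR). At his-67 and his-68 (chromosome I from 9988452 to 9989437) the values were 79.2, 97.6, 68.5 and 75.8 CPM against 66.5, 58.9, 62.1 and 55.3 CPM. The groups lay about 2 CPM apart at their nearest libraries, with a log2 fold change of 0.41 (SE 0.0912, adjusted p = 0.0284, edgeR). At his-61 and his-62 (chromosome IV from 7485865 to 7486974) they were 95.8, 116, 103 and 94.0 CPM against 80.3, 91.3, 93.5 and 72.6 CPM, close to touching, with a log2 fold change of 0.37 (SE 0.0836, adjusted p = 0.0288, edgeR).

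Each of the list's 11 peaks at core histone genes had a value above 0, from 0.18 to 0.64, with a median of 0.28. The 4 peaks at his-71 and his-72, which encode the H3.3 variants deposited outside replication, had values of -0.04 to 0.16 with a median near 0, and this division of the list was made after the values were seen. Between the undepleted strains the 11 peaks had values of -0.11 to 0.11 and a median of 0.03, with 0 of 11 at an unadjusted p under 0.05. Against the undepleted strain, accessibility was lower upon GRWD-1 depletion at 8 of the 11 (0.81% of all peaks were lower there) and lower upon RPOA-2 depletion at 2 (0.487%). Median effects were -0.39 and -0.15. The difference of the 2 effects passed the threshold at none of the 15 peaks (median 0.32 over the 11).

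The histone median stayed above 0 under all 33 alternatives, from 0.14 without the libraries numbered 2 to 0.34 with unscaled counts for the factors, and 3 to 11 of the 15 were higher at an unadjusted p under 0.05. The calls were less stable, since the his-7 and his-8, his-67 and his-68, and his-61 and his-62 peaks passed in 16, 14 and 12 of the 33. All 3 missed the threshold with 0, 1 or 3 factors, with the replicate block in place of the factors, with each of the 3 other sets of control peaks, in the depleted libraries alone with 0 factors, when thinned, without RPOA-2 undepleted library 1 or 4, without library 2 of either depleted group, and without the libraries numbered 2. Leaving out any other library except 2 and 4 of the GRWD-1 undepleted strain, 2 of the RPOA-2 undepleted strain and 4 of the RPOA-2 depleted strain cost 1 or 2 of the calls. Only reads with a mapping quality of at least 10 were counted, so reads that fit several histone copies equally well were left out and the values of near-identical copies are uncertain.

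**Figure D4:**
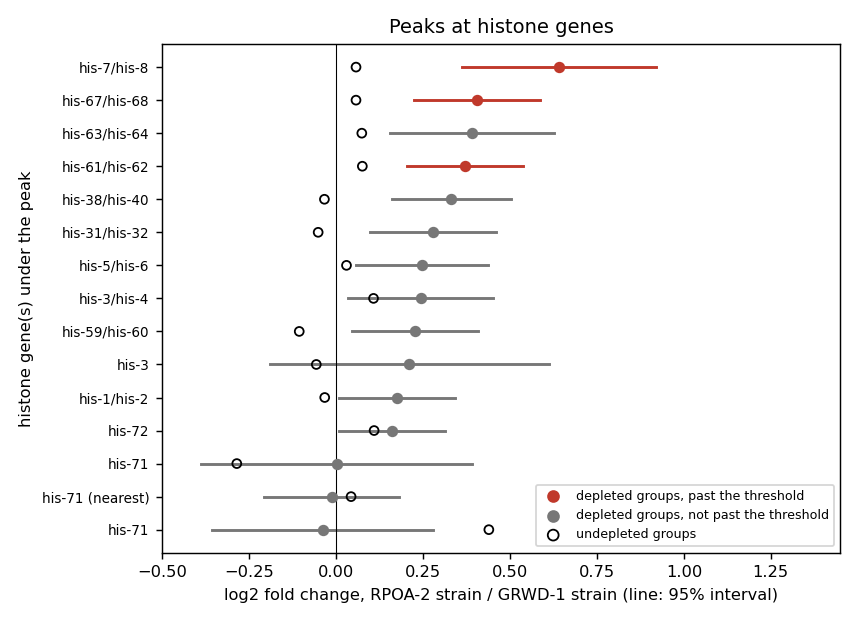
Log2 fold change at each of the 15 histone gene peaks, between the depleted strains (filled points, with lines for the 95% interval) and between the undepleted strains (open circles). The 11 core histone peaks lie at 0.18 to 0.64 in the depleted comparison and at -0.11 to 0.11 in the undepleted one, and the his-71 and his-72 peaks at -0.04 to 0.16.

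A peak 578 bp from the start of cdl-1, which encodes the protein that binds the stem-loop at the end of histone mRNAs, was also higher (chromosome II from 10784454 to 10785295). It held 48.0, 65.4, 54.3 and 43.0 CPM in RPOA-2 depleted libraries 1 to 4 and 41.0, 43.9, 34.9 and 37.4 CPM in GRWD-1 depleted libraries. The groups overlapped, since library 4 of the first lay under library 2 of the second (log2 fold change 0.48, SE 0.101, adjusted p = 0.0154, edgeR).

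The remaining higher peaks were spread over all 6 chromosomes. By fold change, the first was a peak outside genes on chromosome V from 7914008 to 7914318, with 31.4, 27.95, 24.6 and 21.6 CPM in RPOA-2 depleted and 17.8, 14.7, 13.9 and 19.05 CPM in GRWD-1 depleted libraries. These groups did not overlap (log2 fold change 0.77, SE 0.147, adjusted p = 0.00617, edgeR). The second, 808 bp from the start of R11E3.16 and outside genes (chromosome IV from 4783769 to 4784286), held 51.1, 91.2, 48.9 and 39.8 against 38.4, 54.7, 34.9 and 25.9 CPM. Library 2 was the highest of both groups, which overlapped, and the log2 fold change of 0.65 (adjusted p = 1.16e-04, edgeR) was 0.44 without RPOA-2 depleted library 2 and 0.39 without the libraries numbered 2, past the threshold in neither.

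Other higher peaks with log2 fold changes of at least 0.47 lay near C39D10.7 (0.59) and F09F9.7 (0.48), in exons of F59C12.4 (0.56) and T23G5.3 (0.53), in the 5′UTRs of Y38H6C.16 (0.52), sahd-1 (0.51) and soem-1 (0.49), and over the microRNA gene mir-8196a within linc-154 (0.47). Of these 8, the sahd-1 peak alone had groups that did not overlap, at 34.7 to 44.5 CPM against 26.2 to 31.9 CPM. Adjusted p-values were 0.0149 to 0.0356 in edgeR's test.

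Genes of chromatin and development stood near some smaller changes, picked out here after their values were seen. The peak over the 5′UTR of nurf-1, a subunit of the NURF chromatin remodeller, held 255, 393, 231 and 219 CPM in RPOA-2 depleted libraries 1 to 4 and 210, 296, 209 and 172 CPM in GRWD-1 depleted libraries. The groups overlapped and library 2 was the highest of both (log2 fold change 0.44, adjusted p = 0.00814, edgeR), and with unchanged direction the value was 0.16 at the lowest of the 33 alternatives. A peak 1418 bp from lin-41, the target of the let-7 microRNA that times larval development, held 160, 277, 143 and 164 CPM against 143, 215, 148 and 120 CPM. Its groups overlapped widely (log2 fold change 0.39, adjusted p = 0.0154, edgeR). It was the 1 called of 30 peaks at heterochronic genes (3.33%, beside 0.130% of all peaks called in either direction), whose median was 0.07. Peaks near lin-13, a zinc-finger protein of the synMuv B group, and over the 5′UTR of myrf-1, a membrane-bound transcription factor of larval development, had log2 fold changes of 0.37 and 0.39. The 5′UTR of bus-18, an acyltransferase gene, was higher by 0.42 without overlap of the groups, at 89.8 to 110 CPM against 58.6 to 85.6 CPM.

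**Figure D5:**
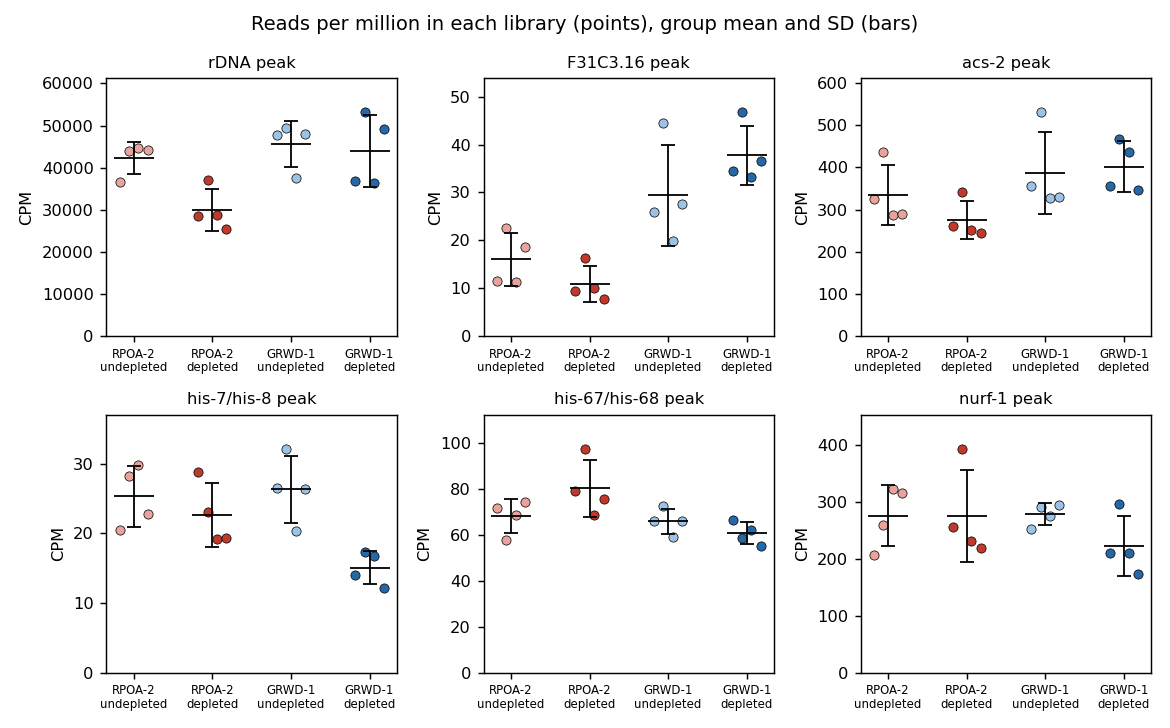
CPM in each library (points, ordered 1 to 4 within a group) at 6 peaks that differed between the depleted strains, with the group mean and SD (bars, n = 4). The rDNA peak lies at 25462 to 37109 CPM in RPOA-2 depleted larvae and at 36351 to 53214 CPM in GRWD-1 depleted larvae, and the his-7/his-8 peak at 19.2 to 28.9 and 12.2 to 17.3 CPM.

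As a group, the 29 higher peaks were longer and stronger than most. Their median length was 748 bp and their median level 54.9 CPM, and the 9 lower peaks had 505 bp and 35.8 CPM, beside 381 bp and 19.7 CPM over all peaks. Of the 29, 12 overlapped no gene (41.4%, against 17.5% of all peaks), 8 overlapped a 5′UTR (27.6%, against 14.4%), and 7 had groups that did not overlap (1.34% of all peaks were higher in this way). The called changes were as small as 0.34 on the log2 scale, and changes of that size pass the threshold more readily at peaks with more reads. Whether length and level reflect more than this was not tested. Upon RPOA-2 depletion 16 of the 29 rose against the undepleted strain (1.2% of all peaks rose), and upon GRWD-1 depletion 2 rose and 4 fell (0.57% and 0.81% of all peaks). The 29 were chosen on the same depleted libraries, so the choice itself favours an excess over all peaks in these counts and in groups without overlap. The 2 that rose upon GRWD-1 depletion lay at F19B10.13 (0.71) and R03H10.6 (0.74), where RPOA-2 depletion gave 1.09 and 0.85.

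Genes of ribosome biogenesis gave few calls, where 0.130% of all peaks were called in either direction. No peak was called at the RNA polymerase I subunit genes (0 of 10, median 0.03), at nucleolar and large subunit assembly genes (0 of 26, median 0.07) or at cytosolic ribosomal protein genes (0 of 102, median 0.05, 7 higher and 1 lower at an unadjusted p under 0.05, beside 4.28% and 2.78% of all peaks). The largest of the last were rps-25 (0.67), rpl-14 (-0.48) and rps-11 (-0.42), none past the threshold. At snoRNA genes, which guide rRNA modification, 0 of 200 peaks were called, with 20 higher and 7 lower at an unadjusted p under 0.05, beside the same shares of all peaks. The alternatives gave 2 to 29 higher and 3 to 42 lower there, up to 5 called, and medians of -0.05 to 0.05, below 0 with 0 or 3 factors, with the block, and without RPOA-2 depleted library 2 or the libraries numbered 2. Of 409 peaks at tRNA genes, 1 was called, the kvs-3 5′UTR peak, beside 0.130% of all peaks called in either direction. Their median was 0.00497, with 24 higher and 13 lower at an unadjusted p under 0.05, and over the alternatives it ran from -0.16 to 0.02. With the block on the depleted libraries alone, 1 tRNA peak was called higher and 15 lower in edgeR's test, and 143 were lower at an unadjusted p under 0.05.

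The tagged genes did not differ either past the threshold. The peak at the start of rpoa-2 (chromosome I from 9286524 to 9286681) had a log2 fold change of -0.14 (95% interval -0.61 to 0.32) and the peak in grwd-1 (chromosome III from 5154270 to 5154505) -0.13 (-0.46 to 0.20). At eef-1A.1, whose promoter under the name eft-3 drives TIR1 in both strains, the value was 0.12 (-0.03 to 0.27). Depletion acts on the protein, so accessibility of these genes does not check it.

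Stress, immunity and tissue genes gave no called peak as reported, where 0.130% of all peaks were called in either direction. At stress response genes 0 of 34 were called and 25 were above 0 (median 0.08). Over the alternatives 12 to 27 were above 0, up to 2 were called, and the median ran from -0.03 with 3 factors to 0.09, also falling just under 0 without the libraries numbered 2. The nearest to the threshold was hsp-70, a heat shock gene, at 0.47 (adjusted p = 0.0628, edgeR), and the small heat shock genes hsp-16.48 and hsp-16.41 had 0.59 and 0.46 (adjusted p = 0.319 and 0.190), values that turned negative with 3 factors. At innate immunity genes 0 of 305 were called, and 95 were above 0 with a median of -0.05, where 15042 of all 29131 peaks were above 0. Its lowest values were at clec-103 (-0.66), lys-7 (-0.50) and clec-28 (-0.48), and the list's median was below 0 under all 33 alternatives, from -0.08 to -0.01. Cuticle collagens (0 of 186), the EOR-1 and EGF-Ras pathway (0 of 31) and insulin and TOR genes (0 of 46) had medians of 0.01, 0.04 and 0.02.

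Markers of intestine, body wall muscle, neurons, epidermis, pharynx and germline precursors all had peaks with reads in both groups. None of their 3, 10, 9, 11, 14 and 4 peaks was called, and the medians of the 6 lists ran from -0.07 (intestine) to 0.06 (body wall muscle). In whole larvae, a change in the share of cells that carry an open site and a change of accessibility within cells cannot be told apart.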

How the data were processed

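Trimming (fastp), alignment to WBcel235 (Bowtie2), peak calling (MACS2) and peak merging were performed by the authors, who deposited counts of reads per merged peak from featureCounts. Per the file headers, featureCounts v2.0.1 counted single read ends and left out marked duplicates. Counts were used as deposited. Peaks were annotated with Ensembl release 115 genes, the nearest gene being that with the 5′ end closest to the peak's midpoint. CPM used TMM-scaled totals.

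Differences were tested with edgeR 4.0.16 (R 4.3.3, TMM, quasi-likelihood test, Benjamini-Hochberg adjustment over 29131 peaks; the filter on low counts removed 0), with 2 factors computed as in RUVg from 13897 control peaks (47.7%; DESeq2 1.42.0 adjusted p of at least 0.75 for RPOA-2 depletion). These control peaks were selected on libraries of the comparison. The common biological coefficient of variation was 8.15%. Data were simulated from the fitted model, with these depths and its 2 factors. There, 50% of changes of 0.5 and 98% of changes of 1 on the log2 scale were recovered, with 3 false calls among 29131 peaks. The changes were placed only at peaks with an average log2 CPM above 2. The simulation took the factors as given, so it cannot tell whether they suit the real data. Named peaks were, in each direction, the 12 with the largest fold changes among those called, those called in the interaction, the peaks of rpoa-2, grwd-1, eef-1A.1 and rRNA genes, and of the lists the called members and the 3 with the largest values, of which those of 8 of the 19 lists were followed through the alternatives. Members and lists were chosen with earlier results of these data known. Alternatives changed the test, factors, control peaks, scaling, filter, samples and replicates. No genome sequence was used here.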

Additional observations from a re-analysis of the deposited data

Results flagged for a closer look

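At 3 peaks the 2 depletion effects differed in edgeR's interaction test. The difference of the log2 effects, RPOA-2 minus GRWD-1, was -0.47 at the rDNA peak with rrn-3.1 (chromosome I, start 15063578) and -1.03 at the F31C3.16 peak (chromosome I, start 15060874). At the kvs-3 5′UTR peak with F44A2.10 (chromosome V, start 9317893) the fitted value was -11.05, which depends on the prior count because 3 of the 4 groups are at or near 0.

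Within groups of 4 libraries, 5 of 79 groups examined held a library far from the others by Dixon's test, where chance gives about 1 in 20. GRWD-1 depleted library 2 held 35.9 CPM at Y38H6C.16 against 24.8 to 26.6 CPM in the others. RPOA-2 depleted library 2 held 44.5 CPM at sahd-1 (others 34.7 to 36.0), 257 CPM at the myrf-1 and F59B10.7 peak (142 to 159), 277 CPM near lin-41 (143 to 164) and 748 CPM at Y39A1A.10 (498 to 516). All 5 were libraries numbered 2.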

How the results depend on the processing

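Over 33 alternatives, all 38 peaks kept their direction, but the counts moved. Higher, lower and interaction counts were 0, 2 and 1 with 0 factors, 0, 2 and 1 with 1 factor, 4, 2 and 1 with 3 factors, and 123, 14 and 1 with unscaled counts for the factors. Control peaks taken from GRWD-1 depletion, from the depleted groups or from all peaks gave 4, 2 and 2 higher peaks. DESeq2 called 1 interaction peak, and of the 38 peaks it gave 26 no adjusted p and called 11 of the other 12. An adjusted p under 0.1 gave 48 higher and 5 interaction peaks, and one under 0.01 gave 3 higher and 4 lower. The depleted libraries alone with 0 factors gave 0 higher and 2 lower. DESeq2's size factors, library totals and both other filters left all 38 called.

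The study's methods say that 1 aliquot of each strain was processed together, but no label ties a batch to a replicate number. Same-numbered deviations of the depleted groups correlated at 0.286, 0.436, 0.0996 and 0.108, and every library correlated best with its own number. Over the 4 strains, 13 of 24 same-numbered pairs correlated above 0.1, against 4 of 72 others. The numbers were left unpaired as reported because batches are not labelled, although correlations were higher within a number than between numbers. With the replicate block in place of the factors, 2 peaks were higher, 13 lower and 1 passed the interaction. With the block on the depleted libraries alone 22 were higher and 62 lower, so the balance of higher and lower peaks depended on this choice. A batch would hold 1 library of each group, so no test within it was possible.

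Leaving out 1 library gave 0 to 112 higher, 3 to 15 lower and 1 to 8 interaction peaks. Higher counts moved by over 1.5 times without RPOA-2 depleted library 1 (112), 2 (0), 3 (19) or 4 (45), RPOA-2 undepleted library 1 (4), 3 (15) or 4 (4), GRWD-1 depleted library 1 (12), 3 (3) or 4 (14), and GRWD-1 undepleted library 2 (81) or 3 (12). Chosen after seeing the data, thinning to the shallowest library gave 8 higher and 1 interaction peak, and leaving out the libraries numbered 2 gave 6 higher and 0 interaction peaks (1456 at an unadjusted p under 0.05). The first principal component of log2 CPM separated the groups (8.71, exact permutation p = 0.0286). On it RPOA-2 depleted library 3 stood at 14.7 and GRWD-1 depleted library 4 at -10.96, the shallowest of their groups, and the others lay between -2.38 and 1.48. Over all tested peaks in place of the most variable, the first component did not separate them (6.75, exact permutation p = 0.514).

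Signs turned only at peaks that were not called. At rpoa-2 the value was 0.0031 with 3 factors. At grwd-1 it was 0.0016 with the replicate block, 0.0022 with unscaled counts and 0.095 when thinned. At rrn-4.15 it was 0.0696 with 0 factors (0.074 in the depleted libraries alone), 0.075 with the block (0.076 in the depleted libraries alone), 0.00596 and 0.012 with control peaks from the depleted groups and from all peaks, 0.043 with unscaled counts, 0.049 when thinned, 0.0032 without the libraries numbered 2, and -0.025 to 0.014 leaving out 1 library. At hsp-16.48 and hsp-16.41 it was -0.25 and -0.0799 with 3 factors. The causes were not tested.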
